A study of Komagataella phaffii GS115 with 9 samples.

Results

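The comparison covers 6 libraries of one strain, namely 3 of the robust *P. pastoris* mutant (G14) induced at 37 °C (G14_37C) and 3 of the same mutant induced at 28 °C (G14_28C), out of 9 libraries in the whole data set. The groups were taken from the sample labels, and the remaining 3 libraries are those of the parent strain (WT) at 28 °C (Parent_28C). The mutant was derived from the parent by laboratory evolution and tolerates heat and oxidative stress. Each culture was grown in flasks, induced with methanol and collected after 60 h, and both strains carry the lipase gene *RCL* under the methanol-inducible *AOX1* promoter. The mutant stands for 1 evolved strain. The parent at 37 °C was not analysed here, so what the heat did in any strain and what it did in this mutant cannot be told apart. The study describes its replicates as biological, and the labels do not say more about each culture.

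*P. pastoris* is a methylotrophic yeast, which oxidises methanol to formaldehyde and hydrogen peroxide in its peroxisomes. On methanol, a small number of very abundant transcripts serve this pathway, and the strong *AOX1* promoter is for this reason used to make foreign proteins. In yeasts, a higher temperature typically raises transcripts for chaperones and lowers those for ribosome production.

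The measurement is 1 value per feature and library for 5557 features, in a form that fits FPKM, which is the number of reads divided by the length of the gene and by the size of the library. Of these features, 5527 are named by locus tags, and neither the table nor the reference at hand pairs them with gene names. The lists of heat shock, methanol and antioxidant genes could therefore not be followed, and genes are described by level, length and position. The number of whole reads behind each value was recovered from the steps between values. Total reads ranged from 13131111 to 13781390 for G14_28C and from 13925951 to 15945465 for G14_37C. The sum of FPKM of a library was 958893 to 1003480 for G14_28C and 707354 to 790873 for G14_37C, and the values carry a scaling between libraries. On that scaling, the median log2 fold change of all tested genes was -0.025. With each library scaled to its summed reads instead, this median was 0.36, so directions below are relative to the typical gene of the deposited scaling.

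Temperature separated the libraries, with 87.6% of the variance of log2(FPKM + 1) on the first principal component and 5.72% on the second. One library at 37 °C stood apart from its replicates. The distance of G14_37C replicate 1 to the other libraries at 37 °C was 20.7 and 19.2 on the log2 scale over all tested genes, whereas replicates 2 and 3 were 14.2 apart. This library also held the most prominent single feature. A gene on chromosome 3 had 30934, 14490 and 14433 FPKM in the 3 libraries at 37 °C, which was 3.70, 1.85 and 1.81% of their reads. At 28 °C, it had 11948, 12064 and 10879 FPKM. The groups did not overlap, but the log2 fold change of 0.68 (SE 0.30) had an adjusted p of 0.070 from limma, against 0.32 and an adjusted p of 0.021 without replicate 1. Some counts of called genes and some fold changes are also given below without this library. Shares of the summed FPKM and summed levels are given only with it.

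Differences between the temperatures were tested with limma, using log2(FPKM + 1) and the 5459 features with a mean of at least 1 FPKM at one of the temperatures. A gene is called higher or lower where the adjusted p is under 0.05 and the absolute log2 fold change above 1. The added 1 makes fold changes of genes near 0 smaller than they are in FPKM. By these criteria, 3.96% of the tested genes were called higher at 37 °C and 7.05% lower, or 11% together. In 599 of the 601 called genes, the 3 values at 37 °C lay outside the range of the 3 values at 28 °C. Such a separation is frequent here, since 73.5% of all tested genes show it, 35.1% with higher and 38.4% with lower values at 37 °C. By an adjusted p alone, 69.4% of the genes differed. Most of these differences were small, with a median absolute log2 fold change of 0.50. The balance rests on the scaling, as the 216 higher and 385 lower genes became 596 and 174 when libraries were scaled to their summed reads. Without replicate 1 at 37 °C, 198 genes were called higher and 406 lower.

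On the deposited scaling, the 2 directions differed in how far they reached. Beyond a 4-fold change, 37 genes were called higher and 71 lower. Beyond 16-fold, 6 were higher and 3 lower, and beyond 32-fold, 4 were higher and 0 lower. These counts also rest on the value added before taking logs, which shrinks rises from near 0. They are not given for libraries scaled to their summed reads. With the latter scaling, a gene of 2394 bases on chromosome 2 moved from a log2 fold change of -4.12 to -3.87, so under 16-fold. CHR4-0342 and CHR2-0423, described below, were then at -4.09 and -4.02. The genes called higher had low levels to begin with, with a median of 18.8 FPKM at 28 °C and 50.8 FPKM at 37 °C. The genes called lower went from a median of 240.7 FPKM to 89.3 FPKM. In the parent, which took no part in the test, the medians of the same gene groups were 27.0 and 215.4 FPKM.

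**Figure D1:**
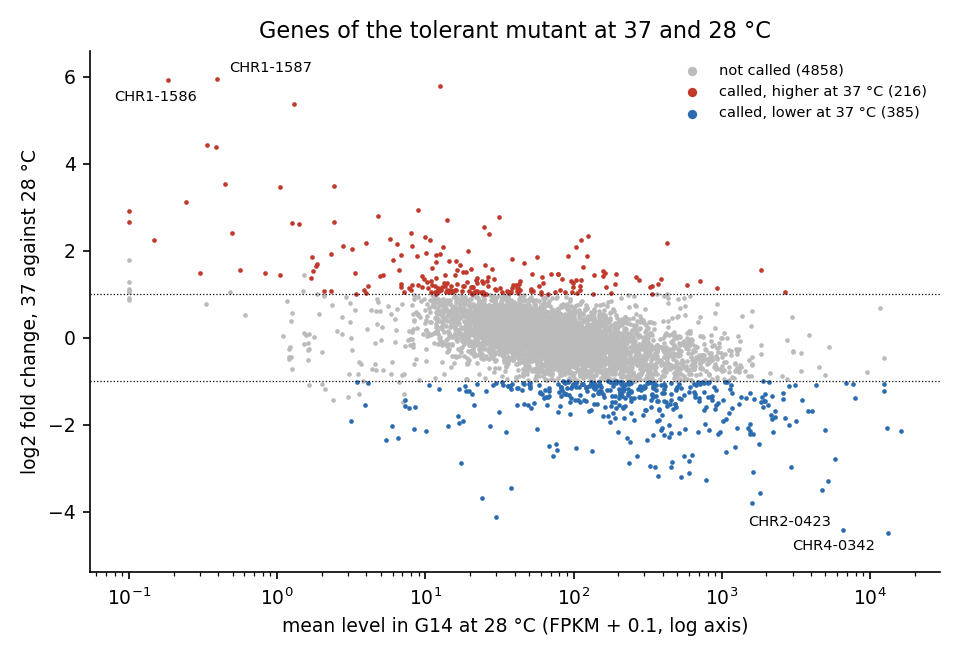
Log2 fold change between 37 and 28 °C of each tested gene of the mutant (vertical axis) against its mean level at 28 °C (horizontal axis, FPKM + 0.1, log scale), with each point a gene and dotted lines at a log2 fold change of 1 and -1. The largest increases lie at low levels on the left, and the largest decreases of the named genes lie at high levels on the right.

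The largest increase was that of CHR1-1587, a gene with a coding length of 1611 bases. Its level was 0.200, 0.472 and 0.204 FPKM in the libraries at 28 °C and 80.5, 91.3 and 67.4 FPKM at 37 °C. It was thus near 0 at 28 °C and at or above the level of the typical gene at 37 °C. The log2 fold change was 5.96 (SE 0.15), with an adjusted p of 6.8e-08 from limma. The parent had 2.78, 1.84 and 1.61 FPKM. The 17 reads at 28 °C and 6761 reads at 37 °C give a ratio of 275, relative to the library sizes used in the values, with a 95% exact interval of 172 to 472 that covers counting error only.

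CHR1-1586, next to it in the numbering and 666 bases long, rose as well. It had 0, 0 and 0.247 FPKM at 28 °C and 76.0, 66.7 and 52.7 FPKM at 37 °C. Only 2 reads were found over the 3 libraries at 28 °C, against 2291 at 37 °C. The log2 fold change was 5.93 (SE 0.18), with an adjusted p of 1.2e-07 from limma, and the ratio of reads was 792 (219 to 6546 by counting error). With a pseudocount of 0.1, its log2 fold change was 8.73 against 7.73 for CHR1-1587, so the order of these genes depends on the pseudocount. In the parent, 3, 3 and 2 reads were found, so it was near 0 at 28 °C there too.

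Another gene, on chromosome 4, reached a far higher level. It had 14.4, 9.03 and 14.1 FPKM at 28 °C and 665.1, 646.0 and 918.4 FPKM at 37 °C, a 59.4-fold ratio of the means. This gene has a length of 1206 bases and had 15.9 to 21.9 FPKM in the parent. It was the only one of the 10 largest increases with a mean of more than 100 FPKM at 37 °C. The log2 fold change was 5.79 (SE 0.19, adjusted p = 1.5e-07 from limma).

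Next in size was a gene among the first 3 of chromosome 1, which rose from 0.929, 0.824 and 1.82 FPKM to 87.7, 90.3 and 86.7 FPKM. Its 3 libraries at 37 °C were the most even of these genes. The log2 fold change was 5.38 (SE 0.16, adjusted p = 1.3e-07 from limma). The parent had 9.68, 10.5 and 14.4 FPKM, above each value of the mutant at 28 °C.

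The remaining 6 of the 10 largest increases (ranked among called genes without overlap and with a mean over both groups of at least 5 FPKM) had log2 fold changes of 2.94 to 4.43 and adjusted p-values up to 5.5e-04 from limma. Of these, 3 were features of only 117 bases on chromosomes 1 and 4. Both on chromosome 4 had 40.03 FPKM in G14_37C replicate 1 and 16.98 to 26.9 FPKM in the other libraries at 37 °C. That on chromosome 1 had 27.9, 14.98 and 14.5 FPKM. For all 3, replicate 1 was the highest, and without it their log2 fold changes were 4.09, 3.28 and 3.17. Whether features of the same short length share reads was not tested.

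The largest decrease was that of CHR4-0342, with a length of 354 bases, which ranked 4 among the most abundant features of the parent. It had 13633, 14679 and 11303 FPKM at 28 °C and 833.2, 471.8 and 504.1 FPKM at 37 °C. Its group means were 21.9-fold apart. Even so, its lowest level at 37 °C stayed well above that of the typical gene. The log2 fold change was -4.49 (SE 0.21), with an adjusted p of 8.6e-07 from limma, and without replicate 1 it was -4.75. The parent had 14809, 14446 and 15087 FPKM.

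CHR2-0423, with a length of 216 bases, ranked 8 in the parent and fell in the same manner. It had 6678, 6913 and 6224 FPKM at 28 °C and 322.0, 244.0 and 370.2 FPKM at 37 °C. No value at 37 °C came near the lowest at 28 °C. The log2 fold change was -4.42 (SE 0.14, adjusted p = 1.5e-07 from limma). In the parent, the level was 10212, 8626 and 8735 FPKM.

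Of the other 8 large decreases, with log2 fold changes of -4.12 to -3.27, 5 had a mean of at least 780.9 FPKM at 28 °C. The tightest was a gene of 1422 bases on chromosome 3, which had 1632, 1576 and 1617 FPKM at 28 °C and 116.4, 110.8 and 113.5 FPKM at 37 °C (log2 fold change -3.81, SE 0.055, adjusted p = 7.3e-09 from limma). Its replicates differed by a few percent, and the parent had 1570, 1587 and 1667 FPKM. Another gene of chromosome 3, 1764 bases long, had 5469, 5303 and 4878 FPKM at 28 °C and 458.3, 509.0 and 633.9 FPKM at 37 °C. In the parent this gene had 1591, 1651 and 1820 FPKM. Its level in the mutant thus lay above that of the parent at 28 °C and below it at 37 °C. A gene on chromosome 2, 2394 bases long, had the lowest mean of the 10 at 37 °C, with 32.5, 23.7 and 33.5 FPKM at 28 °C and 0.682, 0.879 and 0.707 FPKM at 37 °C.

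**Figure D2:**
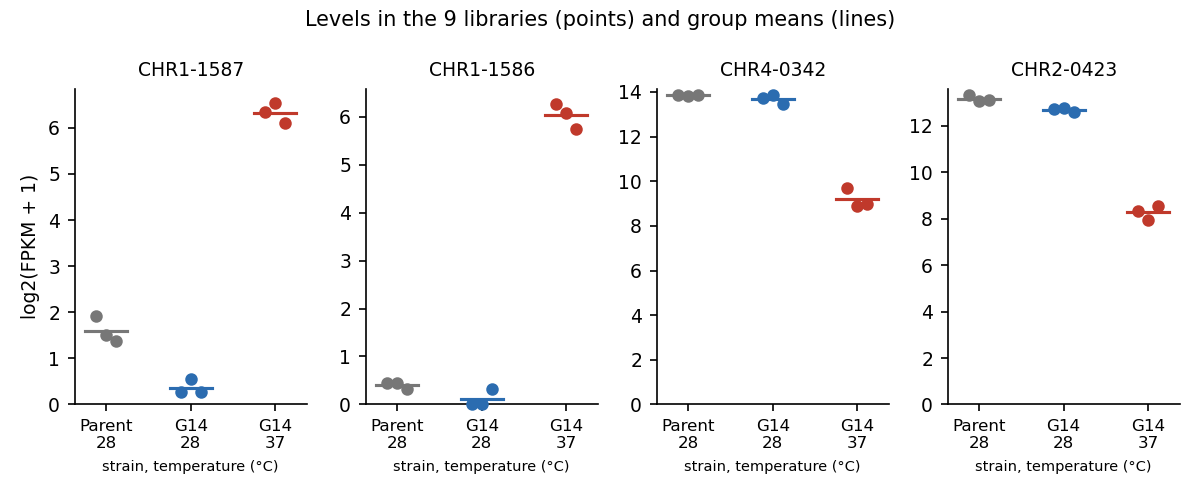
Level of the 4 genes named by their locus tag (vertical axes, log2(FPKM + 1)) in the 3 libraries of each group, with points for libraries and lines for group means. At 37 °C, CHR1-1587 and CHR1-1586 lie above each library at 28 °C of either strain, and CHR4-0342 and CHR2-0423 lie below them.

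These genes were chosen among called genes whose groups do not overlap, so the separation of their libraries is a description.

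The decreases were concentrated among abundant genes. To look at this without the values under test, genes were divided by their mean level in the parent libraries. Of the 171 genes with at least 1000 FPKM in the parent, 39.8% were called lower at 37 °C and 1.75% higher. Of the 443 genes at 300 to 1000 FPKM, 20.8% were called lower, and of the 1320 genes at 100 to 300 FPKM, 8.79%. Higher calls were most frequent at the other end of the scale, where 25.4% of the 130 genes at 1 to 10 FPKM were called higher. In that class 10.8% were called lower, against 7.05% of all tested genes, so it changed more in both directions.

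The median log2 fold change fell with the level in the parent from 1 FPKM upward. It was 0.39 at 1 to 10 FPKM, 0.27 at 10 to 30 FPKM, 0.057 at 30 to 100 FPKM, -0.21 at 100 to 300 FPKM, -0.48 at 300 to 1000 FPKM and -0.78 above. The 42 genes under 1 FPKM had a median of -0.084. The scaling moves these classes from 1 FPKM upward together and does not alter their order. When libraries were scaled to their summed reads, the most abundant class had a median of -0.39 and the class at 1 to 10 FPKM one of 0.76, and the numbers of genes called lower in the most abundant class were 68 and 45 for the 2 scalings. The class at 300 to 1000 FPKM was then at -0.090 and the class at 100 to 300 FPKM turned to 0.19. Without G14_37C replicate 1, the most abundant class was at -0.89.

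**Figure D3:**
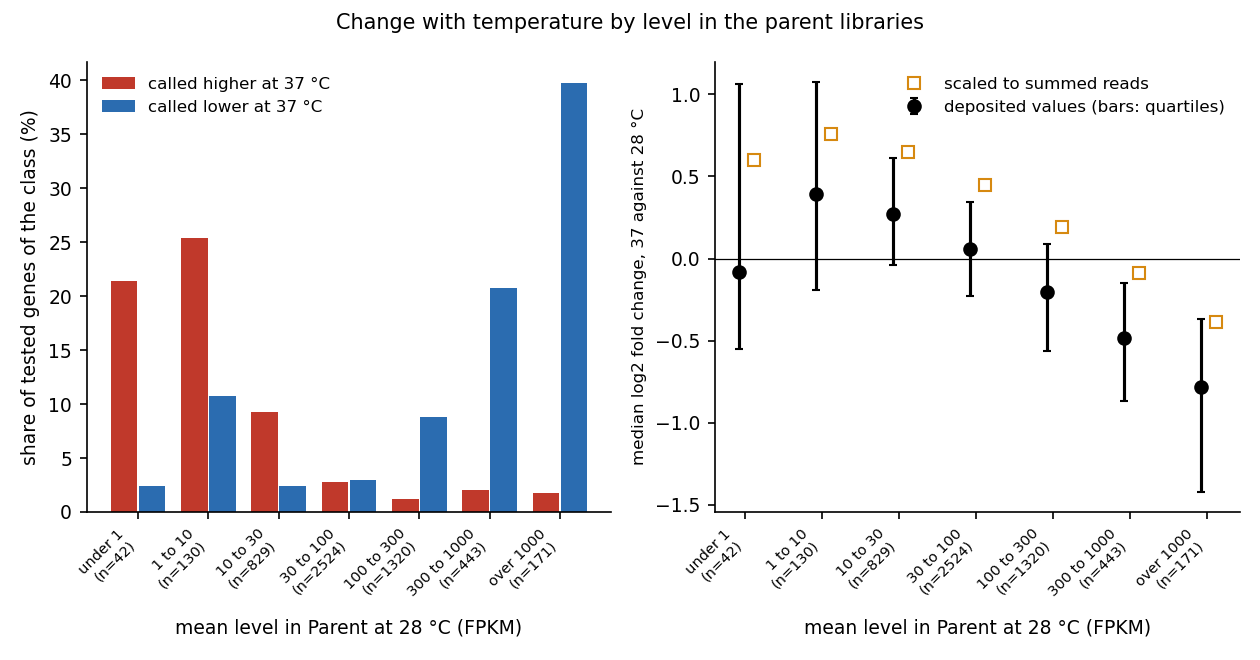
Genes in 7 classes of mean level in the parent at 28 °C (horizontal axes, FPKM, with the number of tested genes). Left, share of each class called higher or lower in the mutant at 37 °C (%). Right, median log2 fold change with quartiles for the deposited values and the median with values scaled to summed reads, which falls from 0.39 at 1 to 10 FPKM to -0.78 at 1000 FPKM and above for the deposited values.

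Among the 20 most abundant features of the parent, 14 were called lower at 37 °C and 0 higher, and 19 had a negative log2 fold change. By the adjusted p alone, 18 were lower. When libraries were scaled to their summed reads, 8 were called lower and 1 higher. The exception in sign was the gene of chromosome 3 with 30934 FPKM in one library, described above.

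The most abundant feature of the parent, on chromosome 4, had 16462, 16440 and 15711 FPKM in G14_28C and 4430, 3405 and 3194 FPKM in G14_37C. Its log2 fold change was -2.15 (SE 0.15, adjusted p = 6.8e-06 from limma). The second, on chromosome 3, had 13292, 13341 and 12294 FPKM and then 3462, 2860 and 2883 FPKM. Their groups did not overlap, and both were still among the abundant features at 37 °C. The feature that ranked 7 was less affected. It had 9087, 9554 and 9917 FPKM at 28 °C and 5445, 5449 and 5570 FPKM at 37 °C, a log2 fold change of -0.79 that was not called. The feature that ranked 16 had 5618, 5009 and 5141 FPKM against 4581, 4224 and 4690 FPKM (log2 fold change -0.22, adjusted p = 0.101 from limma).

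The summed FPKM was spread over more genes in the libraries at 37 °C. The 10 most abundant features of the parent held 10.4, 10.6 and 10.1% of the summed FPKM in the libraries at 28 °C and 4.72, 3.98 and 3.93% at 37 °C. These groups did not overlap. The same was found for the 50 most abundant features, with means of 24.5 ± 0.38% and 16.3 ± 1.77% (SD, n = 3 each), and for the 100 most abundant, with 32.3 ± 0.43% and 23.0 ± 1.92%. These lists were drawn at 28 °C and can miss features that became abundant at 37 °C. With the 10 most abundant features of each library itself, the fall was smaller, from 11.79 ± 0.17% to 9.37 ± 1.23%. With 50, it was from 25.7 ± 0.33% to 19.6 ± 1.86%. The single most abundant feature of each library held more of the summed FPKM at 37 °C. It held 3.91, 2.05 and 1.99%, against 1.64% in each library at 28 °C. This did not hold by reads, where the top feature held 3.70, 1.85 and 1.81% at 37 °C. At 28 °C, it held 2.95, 2.95 and 2.90% of reads (exact permutation p = 0.4, two-sided). Only G14_37C replicate 1 was thus higher by reads.

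Features needed to reach 50% of the summed FPKM numbered 306, 306 and 332 at 28 °C and 462, 585 and 548 at 37 °C. G14_37C replicate 1 was nearest to the 28 °C libraries here. Features above 1000 FPKM numbered 136, 136 and 125 at 28 °C and 71, 54 and 57 at 37 °C. Shares do not depend on the scaling between libraries, whereas the count above 1000 FPKM does. Each of these differences in FPKM had an exact permutation p of 0.1 (two-sided), the smallest possible.

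**Figure D4:**
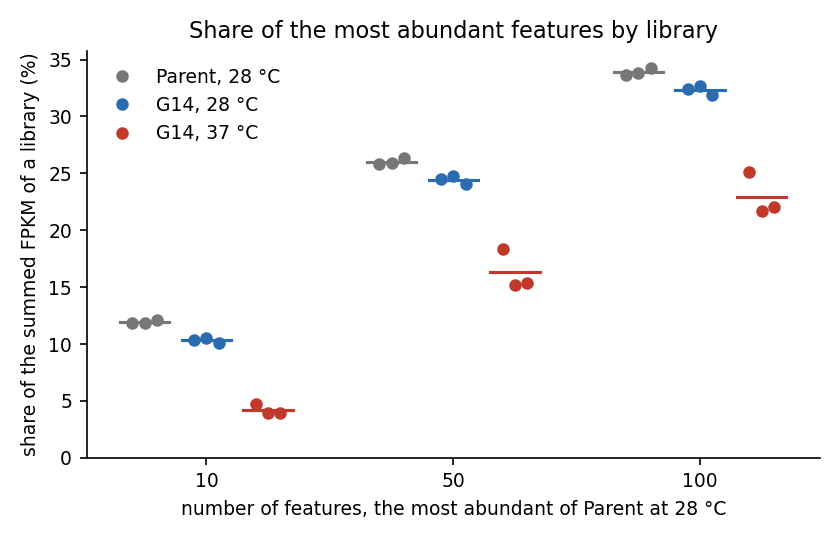
Share of the summed FPKM of each library (vertical axis, %) held by the 10, 50 or 100 features that are most abundant in the parent at 28 °C (horizontal axis), with points for libraries and lines for group means. The 3 libraries of the mutant at 37 °C lie below those at 28 °C for each list, and G14_37C replicate 1 is the highest of them.

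As groups, the called genes made up very different parts of the transcriptome. The 385 lower genes held 30.3 to 31.2% of the summed FPKM at 28 °C and 12.8 to 13.4% at 37 °C. The 216 higher genes held 1.63 to 1.65% and 5.67 to 6.02%. In the parent, these groups held 29.9 to 30.3% and 1.70 to 1.71%. The groups were chosen by the same values in the mutant, so these shares are a description.

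By position, the large increases were frequent at the ends of the locus tag numbering. Tags are numbered along each of the 4 chromosomes, and the order was not checked against genome coordinates. An end is taken here as the last tags before the consecutive numbering becomes sparse. Of the 38 tested genes within 5 tags of one of the 8 ends, 19 (50%) were called higher at 37 °C and 2 lower, and their median log2 fold change was 0.88. Among the genes at least 25 tags from an end, 3.57% were called higher. Of the 6 genes beyond a log2 fold change of 4, 4 lay within 5 tags of an end, or 2 under the rule for an end that was applied first. None of the 14 genes below -3 lay there.

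This count depends on where a numbering is taken to end at its high side. Under the rule first applied, by which each numbering ends 3 or 4 tags earlier, 8 of 38 genes were called higher and 2 lower. The rule used above was chosen after these values were seen, so the counts it gives at the high ends are a description and support nothing further. At the low ends, where both rules are identical, 6 of 18 tested genes were called higher and 2 lower, and at the high ends 13 of 20 were called higher and 0 lower. The low ends also include a gene, on chromosome 2, that passed the filter only through 37 °C. Its mean at 28 °C was 0.29 FPKM, so the low-end counts are a description as well. When libraries were scaled to their summed reads, 22 of the 38 were called higher, and without G14_37C replicate 1, 19.

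The 8 ends differed. On chromosome 1, the last 4 genes of the numbering were called higher, with log2 fold changes of 1.81 to 5.96, among them CHR1-1586 and CHR1-1587, and the first 3 had 2.24 to 5.38. On chromosome 4, the last 4 genes had 1.93 to 3.54, but 0 of the 3 tested genes at the low end were called and their median was -0.22. On chromosome 3, the last 3 genes had 1.70 to 2.28, whereas 1 of 5 was called higher at the low end, with a median of -0.14. On chromosome 2, 2 of 5 genes were called higher at each end, and at the low end these were not neighbours and a gene with -2.09 was called lower. Between 5 and 9 tags from an end by the later rule, 3 of 40 genes were called higher.

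The median level of the 38 genes was 27.1, 22.4 and 33.5 FPKM at 28 °C and 78.2, 90.0 and 65.1 FPKM at 37 °C. Genes at least 25 tags from an end had library medians of 67.4 to 69.4 FPKM at both temperatures. The genes near the ends were thus below the typical gene at 28 °C and near or above it at 37 °C. In the parent they were at 38.4, 41.4 and 40.9 FPKM. Genes of low level were called higher more often in general, with 24.4% of all tested genes under 10 FPKM in the parent, against 9 of the 10 such genes near an end. Of the genes with at least 10 FPKM in the parent, 3.29% of all tested were called higher and 10 of 28 near an end. These counts use the rule chosen after the values were seen and are a description. They were not repeated under the first rule or for the low ends alone. The class under 10 FPKM includes 42 genes under 1 FPKM in the parent, which had to reach a mean of 1 FPKM in the mutant. Whether level accounts for the counts near ends was not tested. Reads shared by near-identical copies of genes were not tested.

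**Figure D5:**
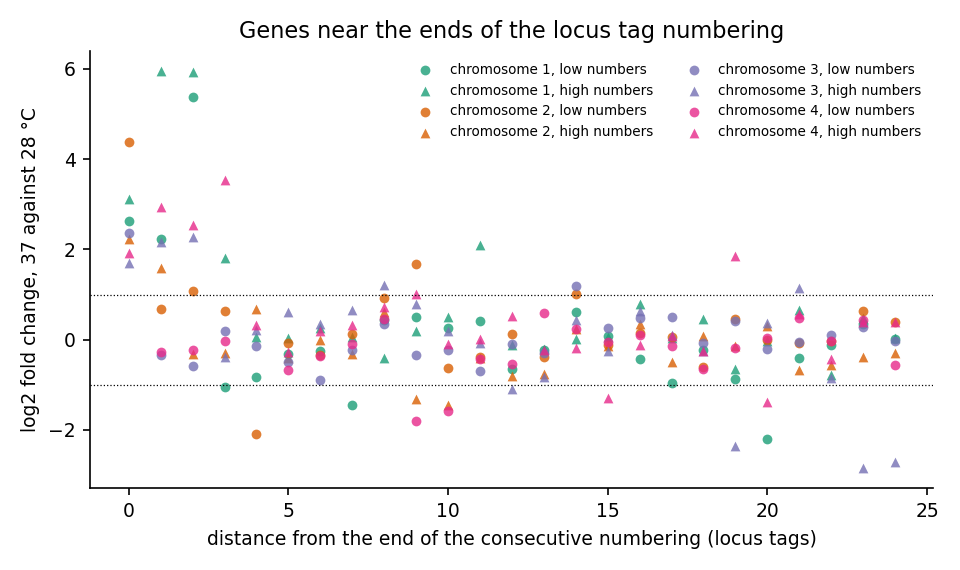
Log2 fold change of the mutant between 37 and 28 °C (vertical axis) for tested genes by their distance in locus tags from the end of the consecutive numbering of a chromosome (horizontal axis), with circles for low and triangles for high numbers and a colour for each chromosome. Dotted lines mark a log2 fold change of 1 and -1, and 19 of the 38 genes at a distance of 0 to 4 tags were called higher.

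The shares and neighbour counts that follow include the genes near the ends. The share of called genes was 10.6% on chromosome 1, 8.83% on chromosome 2, 11.6% on chromosome 3 and 13.1% on chromosome 4. Log2 fold changes of neighbours in the numbering had the same sign in 57.0% of 4929 pairs, against 53.2% for genes 2 tags apart and 50.3% for genes 3 tags apart. A called neighbour of the same direction was found for 31.4% of the 350 lower and 27.0% of the 196 higher genes in the consecutive numbering. Of all tested genes in that numbering, 7.10% were called lower and 3.97% higher, and a gene can have a neighbour on each side. Among the runs, a row of 4 lower genes within chromosome 1 had log2 fold changes of -2.63 to -1.04. A row of 3 lower genes on chromosome 3, at places 1162 to 1164 of 1187, had -3.30 to -2.72.

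Short genes were called more often than long ones. Of the 328 genes with a length under 300 bases, 20.7% were called, 20 of them higher and 48 lower. This balance turned when libraries were scaled to their summed reads, with 41 higher and 29 lower. In the other length classes, 6.80 to 11.6% were called. Nearly all recovered lengths (98.1%) were multiples of 3, as coding lengths are. Whether each feature, and the shortest ones among them, is coding was not tested.

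The mitochondrial genome of yeasts encodes parts of the respiratory chain and of mitochondrial translation, and few reads came from its tags. Of the 49 such tags, 27 had no reads in the 6 libraries, and 8 were tested. Of these, 4 were called higher and 0 lower, against 3.96% and 7.05% of all tested genes, and 2 were called higher without G14_37C replicate 1. The 8 tags had a median of 0.80 FPKM at 28 °C and 2.97 FPKM at 37 °C, where a mean of 1 FPKM at either was required. Tags that passed only through their level at 37 °C could hardly be called lower, so these counts are a description. The summed level of all 49 tags was 11.4, 9.56 and 11.2 FPKM at 28 °C and 44.6, 22.3 and 35.6 FPKM at 37 °C. The ratio of the means was 3.19, with an exact permutation p of 0.1 (two-sided). As a share of the reads of a library (RPM) the ratio was 1.43, with 18.8, 21.0 and 25.5 RPM at 28 °C and 31.2, 27.0 and 35.1 RPM at 37 °C (exact permutation p = 0.1). The place of the parent turned with the measure. Its 19.2, 22.5 and 28.2 FPKM overlapped the mutant at 37 °C, while its 38.2, 48.5 and 54.9 RPM lay above both groups of the mutant. These sums rest on 259 to 498 reads per library of the mutant. Reads were found only at 37 °C for 11 of the 49 tags and only at 28 °C for 1. Such counts can turn on a single read, and each library at 37 °C had more reads in total than those at 28 °C. The same count over all features is not given here, so these numbers are a description.

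Of the 30 features that are not locus tags, 27 were tested, of which 1 was called higher and 5 lower, against 3.96% and 7.05% of all tested genes. When libraries were scaled to their summed reads, 3 were called higher and 1 lower, and their median log2 fold change of -0.42 became -0.035. Together they had 1179, 1163 and 1142 FPKM at 28 °C and 836.2, 794.1 and 767.3 FPKM at 37 °C. The groups did not overlap (exact permutation p = 0.1, two-sided). As a share of reads, the difference was smaller, with means of 0.135 ± 0.0012% and 0.121 ± 0.0033% (SD, n = 3 each).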

How the data were processed

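RNA of 9 cultures was sequenced, and the 6 libraries of G14 entered the tests. Per the labels, CASAVA, HISAT2 (version 2.0.5) and featureCounts (version 1.5.0-p3) were used by the authors. The authors deposited one table with values of the form of FPKM, inferred from the values, as the unit is not named. The genome build and annotation are not given in the sources used here. Every value of the 5516 features with reads was a whole number of reads (within 0.05) times a step set by gene length and library, and dividing library size in the values by recovered reads gave 0.874 to 1.23. A gene of 1000 bases with 3 reads would have 0.163 to 0.253 FPKM in these 6 libraries.

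FPKM are not counts, so limma (version 3.58.1, R 4.3.3, intensity trend) was fitted on log2(FPKM + 1) to the 2 groups only, with Benjamini-Hochberg adjustment over 5459 genes. Genes to be described were the 10 largest increases and decreases among called genes without overlap and with a mean of at least 5 FPKM. Because tags have no names here, only 2 of each are named, and gene lists that need names were not run. No GS115 reference tag (5040 genes) matched. Alternatives were another pseudocount (0.1), filters, scalings, all groups in one fit, a replicate block, limma-voom, other criteria and each replicate left out. The division by parent level and by distance from an end, with their alternatives, was chosen after seeing the data. Python 3.11.15 with numpy 2.4.6, pandas 2.3.3 and scipy 1.17.1 was used. Groups, lists and tests were chosen with earlier results of these data known. P-values weigh the difference between the 2 groups against the spread between these cultures of 1 evolved strain.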

Additional observations from a re-analysis of the deposited data

How the results depend on the processing

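The scaling between libraries decided the balance of directions. With equal sums of values, 631 genes were called higher and 169 lower (78.9% higher), chromosome 2 held 207 called genes, 43 lower genes had at least 1000 FPKM in the parent, 273 higher genes had under 30 FPKM there, and the medians of the most abundant class and of all genes were -0.37 and 0.38. With values scaled to the summed reads, the same numbers were 596, 174, 77.4%, 194, 45, 260, -0.39 and 0.36. Of the 770 genes called with that scaling, 390 were shared with the 601, each in the same direction. By an adjusted p alone, 3787 genes differed (1810 higher, 1977 lower, 47.8% higher), and 2089 by a test against a 1.2-fold change (913 higher, 1176 lower). With a pseudocount of 0.1, the first principal component held 78.5%. With a mean of at least 10 FPKM, 0 mitochondrial tags were called, because few were left to test. With the first rule for the end of a numbering, 8 genes within 5 tags of an end were called higher.

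Leaving out each library in turn gave 587 to 613 called genes, 198 to 225 higher and 373 to 406 lower, 2 to 5 mitochondrial tags and a median of -0.89 to -0.76 for the most abundant class, with 18 to 19 higher genes near ends. Leaving out G14_37C replicate 1 gave the 2 mitochondrial tags and the -0.89. The labels do not say whether the numbers 1 to 3 pair the cultures. Deviations of same-numbered libraries correlated at 0.25, -0.14 and 0.15, and those of differently numbered ones at -0.30 to 0.25. With 3 libraries per group, this cannot settle whether they are paired. With a replicate block, 604 genes were called (217 higher, 387 lower). The 4 named genes kept direction and call under each of the 16 alternatives. Depth is limiting for genes near 0 at 28 °C. The alternatives for gene lists were not run.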
